A study of Danio rerio with 80 samples.

Results

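The genes *wfikkn1* (ENSDARG00000101364) and *ccl27a* (ENSDARG00000058570) are 2 of the 32520 genes in the count table, chosen by their read counts: neither had a single read in the 48 hpf control embryos. Both had reads in exposed embryos of the same age, so their low raw counts are given library by library. Because the values at 48 hpf chose the genes, the levels in controls, in every comparison with those controls and in every comparison with 8-MBaP at 13.3 µM at 48 hpf are a description without a test. Tests are given for the 72 hpf libraries and for pairs of compounds at 48 hpf that use neither of those groups.

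RNA was measured by BRB-seq, a pooled 3′ end sequencing method, in whole zebrafish embryos of the 5D wild-type line. Embryos were exposed in 1% DMSO to benzo[a]pyrene (BaP) or to a form of it with a methyl group at position 8 (8-MBaP) or at position 6 (6-MBaP), each at 0.133, 1.33 or 13.3 µM, or to DMSO alone as the control, and collected at 48 or 72 hours post-fertilization (hpf). All of these compounds are polycyclic aromatic hydrocarbons. Each of the 20 groups had 4 pools of 6 embryos, labelled A to D, which makes 80 libraries. Each compound and concentration filled 1 plate and the controls filled 1 plate, so plate and exposure cannot be told apart and the errors below are those between pools from 1 plate. The study's methods describe no separate plates for 48 and 72 hpf. A plate effect at 48 hpf, the age that chose the genes, could thus carry to 72 hpf. The pools sequenced were the 4 of 5 with the most RNA, and embryos were taken at random whatever their appearance. Library totals ran from 4838752 to 8779891 reads with a median of 6467821. Markers of skeletal muscle, epidermis, neurons, red cells, liver and immune cells had reads in every group, and 1 of 3 heart marker IDs was at 0 in 4 groups of 48 hpf.

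WFIKKN1 is a secreted protein built of several protease inhibitor and follistatin-type modules, and in mammals it binds the growth factors myostatin (GDF8) and GDF11 and blocks their signal, which otherwise restrains muscle growth through activin-type receptors and SMAD proteins. CCL27 is a chemokine, a small secreted protein that attracts white blood cells, and in mammals it is made by skin keratinocytes and draws T cells that carry the receptor CCR10. The compounds studied here are ligands of the aryl hydrocarbon receptor (AHR), a transcription factor that enters the nucleus when bound by a ligand and raises transcription of cytochrome P450 genes of the *cyp1* family. Levels below are read counts relative to library size (CPM) scaled by TMM, and log2 differences are edgeR estimates with their standard errors. Each age was filtered and scaled on its own. Wherever libraries or ranges are said not to overlap, the share of all genes separated in that way was not computed.

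At 48 hpf *wfikkn1* was found in all 12 libraries of 8-MBaP, in 8 of 12 of BaP, in 6 of 12 of 6-MBaP and in 0 of 4 controls. The reads summed to 188 in 8-MBaP, 34 in BaP and 11 in 6-MBaP. At 13.3 µM 8-MBaP the 4 libraries held 20, 22, 35 and 23 reads, with a mean of 3.76 ± 0.851 CPM (SD, n = 4). Library C was the highest and the other 3 lay close together. At 1.33 µM 8-MBaP the libraries held 17, 19, 12 and 20 reads (2.60 ± 0.421 CPM), and at 0.133 µM they held 1, 6, 7 and 6 (0.691 ± 0.384 CPM). In CPM the lowest library of each of the 2 higher concentrations lay above the highest library of the next lower concentration, so the CPM range fell with each step of dilution without overlap. In raw reads the ranges of 13.3 and 1.33 µM met at 20. In controls the sum was 0 of 23034585 reads, which allows up to 0.132 CPM, a limit set at 3 reads over the 4 libraries that covers counting error only. Set against this limit, the mean under 8-MBaP was higher by at least 28.4-fold at the top concentration, at least 19.6-fold at 1.33 µM and at least 5.22-fold at 0.133 µM. In these and later bounds "at least" covers the counting error of the group at 0 only, not the spread of the other group. It does not cover the choice of the genes either. The 48 hpf controls were chosen for their 0 reads, so every bound against them can be too high and is a description only. With a limit of 3 reads per library the bounds were 7.08, 4.89 and 1.30.

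The response to the other compounds was smaller and reached fewer libraries. BaP at 13.3 µM gave 5, 3, 6 and 10 reads (0.976 ± 0.458 CPM), which was at least 7.38-fold above the limit of the controls. Its lower concentrations gave 0, 0, 3 and 3 reads at 1.33 µM and 1, 0, 3 and 0 at 0.133 µM, so only the top concentration of BaP had reads in every library. Of 6-MBaP, 13.3 µM gave 2, 1, 1 and 1 reads, 1.33 µM gave 0, 5, 0 and 0, and 0.133 µM gave 0, 1, 0 and 0. At 1.33 µM all 5 reads of 6-MBaP came from library B. In 5 of the 9 exposures every library had *wfikkn1* reads while every control had 0. These were 8-MBaP at each concentration and BaP and 6-MBaP at 13.3 µM. The rule chose the controls for 0 reads, and the share of all genes separated in this way was not computed. The means of 6-MBaP at 13.3, 1.33 and 0.133 µM were only 1.35-, 1.39- and 0.30-fold the limit of the controls. Those of BaP at 1.33 and 0.133 µM were 1.78- and 1.09-fold. Against the same controls 1.54%, 0.691% and 0.433% of all 17794 genes tested were called in 8-MBaP at 13.3, 1.33 and 0.133 µM, 0.343% in BaP and 0.253% in 6-MBaP at 13.3 µM (adjusted p of at most 0.05). Nothing is read from these shares, since the contrasts chose the genes. In the order of mean levels, 8-MBaP at 13.3 µM and at 1.33 µM each lay above their next neighbour without overlap, and BaP at 13.3 µM, 8-MBaP at 0.133 µM and all lower groups overlapped with their neighbours.

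**Figure D1:**
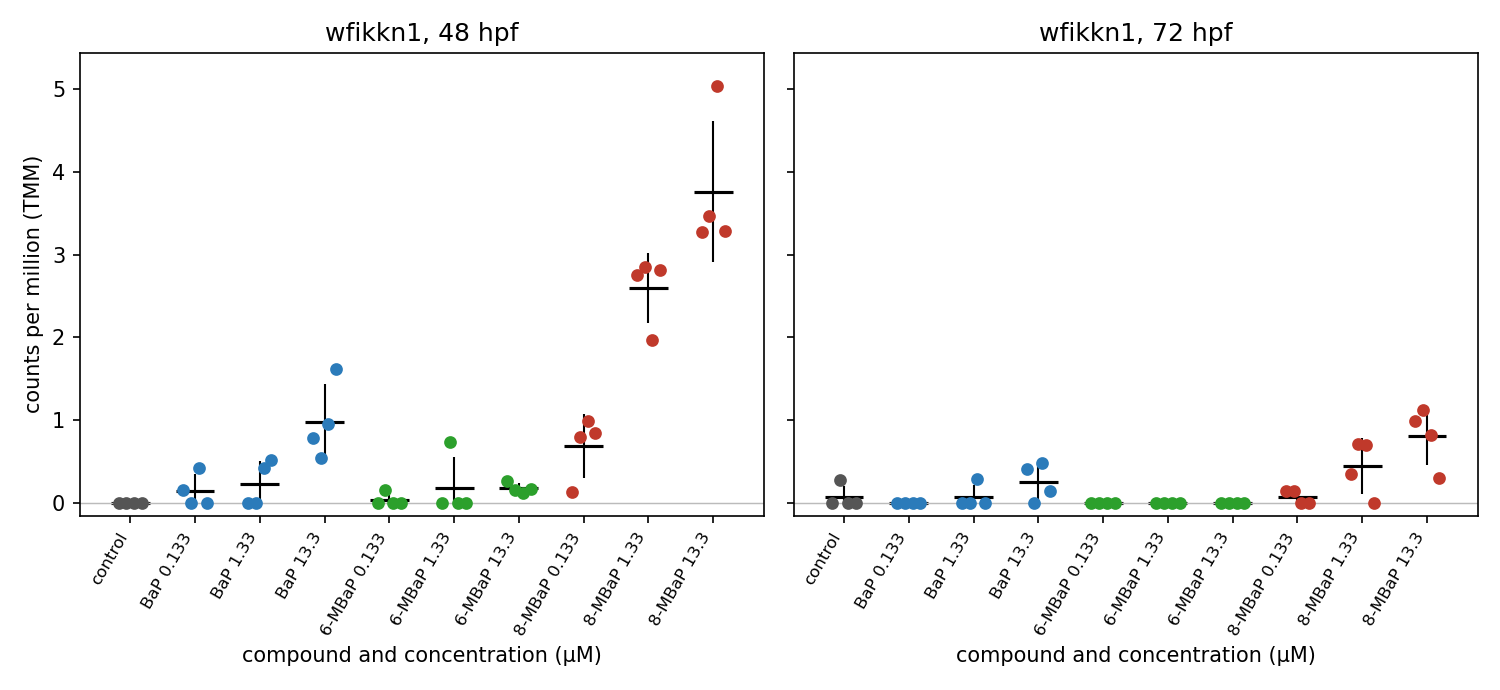
Level of wfikkn1 in CPM (vertical axis, TMM scaled) in each of the 20 groups of 4 pools, at 48 hpf on the left and 72 hpf on the right; points are libraries A to D, horizontal bars are means and vertical bars 1 SD, cut off at 0. The 48 hpf controls sit at 0, 8-MBaP at 13.3 µM averages 3.76 CPM at 48 hpf and 0.812 CPM at 72 hpf, and 6-MBaP is at 0 in all 12 libraries at 72 hpf.

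Between compounds at 48 hpf, 7 pairs could be tested, of which *wfikkn1* was called in 2. At 1.33 µM 8-MBaP was higher than BaP by 3.38 ± 0.78 on the log2 scale (adjusted p = 0.0197), in a comparison in which 0.36% of genes were called, and higher than 6-MBaP by 3.64 ± 0.80 (adjusted p = 0.00789), where 0.506% were called. Both differences were shown by 4 of 4 libraries of 8-MBaP, each above all 4 libraries of the other compound. At 0.133 µM the differences were 2.03 ± 0.89 against BaP (adjusted p = 0.45) and 3.57 ± 1.09 against 6-MBaP (adjusted p = 0.34), with libraries that overlapped, and neither passed. At 13.3 µM 6-MBaP lay below BaP by −2.34 ± 0.84 (adjusted p = 0.36), with a 95% interval of −3.99 to −0.68, and the 4 libraries of each did not overlap (0.197% of genes called). At 1.33 µM the same pair differed by −0.27 with an interval of −2.22 to 1.69 (0.0337% of genes called, and 0.0169% for this pair at 0.133 µM), too wide to show that the compounds acted alike. Both calls were narrow: the adjusted p against BaP at 1.33 µM rose to between 0.0557 and 0.147 when any 1 of 5 libraries was left out (8-MBaP A, B or D, or BaP A or B), and that against 6-MBaP to between 0.0601 and 0.0674 without 6-MBaP library A, C or D. Without library B, which held all 5 reads of its group, the latter difference was 7.08 against a group at 0.

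By 72 hpf the level of *wfikkn1* under 8-MBaP was lower. The 4 libraries of 13.3 µM held 6, 7, 7 and 2 reads (0.812 ± 0.357 CPM), those of 1.33 µM 2, 6, 5 and 0 (0.442 ± 0.339 CPM) and those of 0.133 µM 1, 1, 0 and 0. Controls held 0, 2, 0 and 0 reads, BaP held 3, 0, 3 and 1 at 13.3 µM, 0, 0, 2 and 0 at 1.33 µM and none at 0.133 µM, and 6-MBaP held none in 12 libraries. Reads thus came from 9 of 12 libraries of 8-MBaP, 4 of 12 of BaP and 1 of 4 controls, and no 2 neighbouring groups in the order of levels were separated. The mean at 48 hpf was 4.63-fold that at 72 hpf at 13.3 µM 8-MBaP and 5.87-fold at 1.33 µM, both with ranges that did not overlap. At 0.133 µM it was 9.32-fold with ranges that did. The share of all genes separated between the ages was not computed. Values at 48 hpf chose the gene, so a lower level at 72 hpf can come in part from that choice. This change between ages is a description and was not tested. In whole-embryo RNA, fewer cells that make a transcript and less of it per cell cannot be told apart.

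At 72 hpf *wfikkn1* had 5 or more reads only in libraries of 8-MBaP at 13.3 and 1.33 µM, so it passed the filter on low counts (5 reads in 2 libraries) only through groups in which it was high, and the differences of 8-MBaP below are to be read with that. Of the 9 exposures against control at 72 hpf, *wfikkn1* was called in 0 by edgeR's quasi-likelihood test, and 1 had an unadjusted p under 0.05. That was 8-MBaP at 13.3 µM, higher by 3.18 ± 1.23 on the log2 scale (adjusted p = 0.21), where all 4 exposed libraries lay above all 4 controls and 2.47% of 18423 genes were called. The exact two-sided permutation test gave p = 0.0286, the smallest that 4 against 4 libraries allow, and 0.0857 after adjustment over the 54 permutation tests made for the 2 genes. DESeq2 called 0 but gave no adjusted p in 7 of the 9, among them every concentration of 8-MBaP. It gave a value only for 6-MBaP at 1.33 µM and BaP at 0.133 µM, both with 0 reads, so it could not test 8-MBaP. Both control reads were from library B, and the edgeR difference of 8-MBaP at 13.3 µM was 5.44 without it, then against a group at 0. At 1.33 µM the difference was 2.37 ± 1.25 (adjusted p = 0.63), and 0.277% of genes were called at 0.133 µM, where the difference was 0.09 with an interval of −2.76 to 2.94. Of 9 pairs of compounds at 72 hpf 0 were called by edgeR and 3 had an unadjusted p under 0.05. The smallest adjusted p was that of 8-MBaP against 6-MBaP at 13.3 µM, at least 7.69-fold higher in 8-MBaP with no overlap (adjusted p = 0.0534, with 1.37% of genes called). Neither step between 8-MBaP concentrations was called, and 13.3 µM exceeded 1.33 µM by 0.82 with an interval of −1.17 to 2.80.

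At 48 hpf *ccl27a* had reads in all 12 libraries of 8-MBaP, in 2 of 12 of BaP, in 3 of 12 of 6-MBaP and in 0 of 4 controls, with sums of 76, 4, 4 and 0 reads. The 4 libraries held 8, 3, 9 and 8 reads at 13.3 µM 8-MBaP (1.05 ± 0.395 CPM), 10, 3, 8 and 11 at 1.33 µM (1.23 ± 0.538 CPM) and 8, 3, 2 and 3 at 0.133 µM (0.535 ± 0.338 CPM). The ranges of the 3 concentrations overlapped, and the mean at 1.33 µM was the highest. Against the limit of the controls the level was at least 7.96-fold at 13.3 µM, at least 9.31-fold at 1.33 µM and at least 4.04-fold at 0.133 µM. BaP held 1, 3, 0 and 0 reads at 1.33 µM and none at 13.3 or 0.133 µM. The reads of 6-MBaP were 0, 1, 0 and 2 at 13.3 µM, none at 1.33 µM and 1, 0, 0 and 0 at 0.133 µM. Only the 3 exposures to 8-MBaP had reads in every library, out of 9. The share of all genes with this pattern was not computed.

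At 48 hpf *ccl27a* had 5 or more reads only in libraries of 8-MBaP, so it passed the filter on low counts (5 reads in 2 libraries) only through the compound in which it was high, and its calls at this age are no support for that difference. Among the same 7 pairs of compounds it was called in 1. At 1.33 µM 8-MBaP was at least 10.7-fold above 6-MBaP, whose 4 libraries had 0 reads (adjusted p = 0.0204, and 0.0118 with no filter on low counts, with 0.506% of genes called). Leaving out any 1 of the 4 libraries of 6-MBaP ended the call, with adjusted p between 0.0704 and 0.0825. The difference from BaP at 1.33 µM was 2.83 ± 1.02 (adjusted p = 0.51), and at 0.133 µM 8-MBaP was at least 4.56-fold above BaP with no overlap (adjusted p = 0.16, with 0.365% called). It exceeded 6-MBaP there by 3.23 ± 1.24, also with no overlap (adjusted p = 0.64, with 0.163% called). Of these 7 pairs 5 had an unadjusted p under 0.05.

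**Figure D2:**
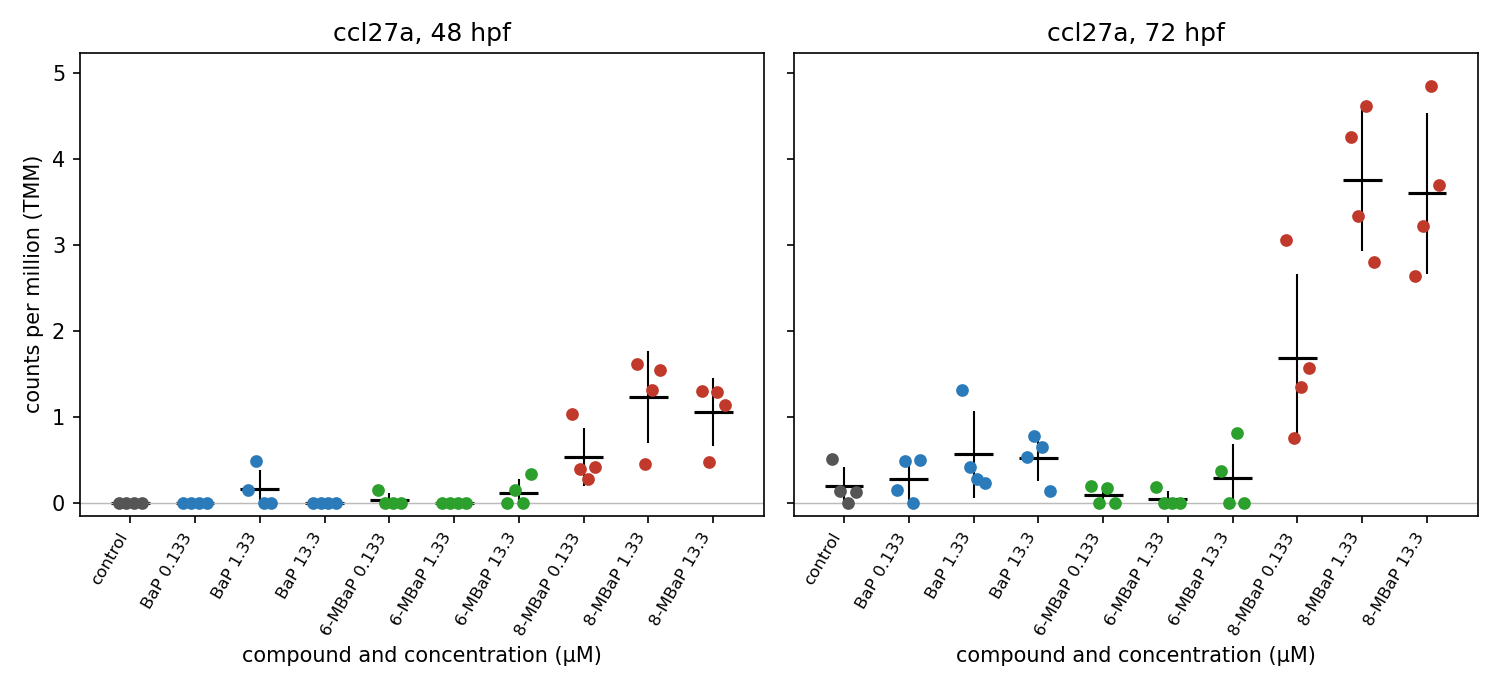
Level of ccl27a in CPM (vertical axis, TMM scaled) in each of the 20 groups of 4 pools, at 48 hpf on the left and 72 hpf on the right; points are libraries A to D, horizontal bars are means and vertical bars 1 SD, cut off at 0. The 8-MBaP groups at 13.3 and 1.33 µM average 3.60 and 3.75 CPM at 72 hpf, above every library of the other compounds and the controls.

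At 72 hpf *ccl27a* had a higher mean than at 48 hpf in each of the 10 groups, while *wfikkn1* under 8-MBaP had a lower one. The controls were chosen for 0 reads at 48 hpf, so their mean could not fall. The same holds for BaP at 13.3 and 0.133 µM and 6-MBaP at 1.33 µM, also at 0 then. The change between ages was not tested. The libraries of 8-MBaP held 16, 20, 41 and 24 reads at 13.3 µM (3.60 ± 0.938 CPM), 24, 28, 33 and 18 at 1.33 µM (3.75 ± 0.83 CPM) and 21, 5, 8 and 9 at 0.133 µM (1.68 ± 0.979 CPM). Controls held 3, 1, 0 and 1 (0.194 ± 0.220 CPM). All 12 libraries of 8-MBaP lay above all 4 controls, and library A was the highest at 0.133 µM. The share of all genes separated from the controls in this way was not computed. BaP held 4, 6, 4 and 1 reads at 13.3 µM (0.529 ± 0.275 CPM), 9, 2, 2 and 2 at 1.33 µM (0.566 ± 0.508 CPM) and 1, 3, 0 and 3 at 0.133 µM (0.284 ± 0.250 CPM). Those of 6-MBaP held 3, 0, 6 and 0 at 13.3 µM, 1, 0, 0 and 0 at 1.33 µM and 1, 0, 1 and 0 at 0.133 µM. The range of each of these 6 groups overlapped with that of the controls. The mean at 72 hpf was 3.42-fold that at 48 hpf at 13.3 µM 8-MBaP and 3.05-fold at 1.33 µM, without overlap, and 3.15-fold at 0.133 µM with overlap. For this gene too the share of all genes separated between the ages was not computed.

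Of 9 exposures against control at 72 hpf *ccl27a* was called higher in 2. With 8-MBaP at 13.3 µM it rose by 4.15 ± 0.74 on the log2 scale (adjusted p = 0.000114, with 2.47% of genes called), and at 1.33 µM by 4.20 ± 0.74 (adjusted p = 0.000162, with 0.923% called). At 0.133 µM the difference was 3.06 ± 0.77 and missed the threshold (adjusted p = 0.066, with 0.277% called). Its 4 libraries did not overlap with the controls, a separation whose share over all genes was not computed. This difference passed with DESeq2 (adjusted p = 0.0292), with no filter on low counts (0.0223), without 8-MBaP library B (0.0434) and without control library A (0.037). DESeq2 and the fit with no filter never called fewer genes than the main fit, so passing with them adds little. The differences of BaP were 1.42 ± 0.85 at 13.3 µM (adjusted p = 0.61, with 0.809% called), 1.50 ± 0.85 at 1.33 µM (adjusted p = 0.72, with 0.13% called) and 0.53 ± 0.95 at 0.133 µM (with 0.0109% called). With 6-MBaP at 13.3 µM the difference was 0.69 with an interval of −1.10 to 2.47 (0.038% called), and at the lower concentrations it was −1.70 ± 1.28 and −0.94 ± 1.16 (0.00543% called in each). Neither step between 8-MBaP concentrations was called at 72 hpf. From 1.33 to 13.3 µM the difference was −0.05 with an interval of −1.12 to 1.01 (0.147% called), and from 0.133 to 1.33 µM it was 1.14 ± 0.57 (adjusted p = 0.85, with 0.168% called).

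Compound against compound at 72 hpf, *ccl27a* was called in 5 of 9 pairs, all of them with 8-MBaP higher. At 13.3 µM 8-MBaP exceeded BaP by 2.73 ± 0.64 (adjusted p = 0.0151, with 0.814% of genes called) and 6-MBaP by 3.46 ± 0.68 (adjusted p = 0.000843, with 1.37% called). At 1.33 µM it exceeded BaP by 2.70 ± 0.64 (adjusted p = 0.0176, with 0.923% called) and 6-MBaP by 5.91 ± 0.93 (adjusted p = 2.02e-05, with 0.89% called). In each of these 4 pairs all 4 libraries of 8-MBaP lay above all 4 of the other compound. The share of all genes separated in this way was not computed. The 4 libraries of a group are pools of 1 plate, so the position of the methyl group cannot be told apart from the plate. At 0.133 µM the difference from 6-MBaP was 4.0 ± 0.90 (adjusted p = 0.0206, with 0.217% called) and that from BaP 2.53 ± 0.74, which did not pass (adjusted p = 0.22, with 0.195% called). The call against BaP at 13.3 µM was lost without 8-MBaP library C (adjusted p = 0.0632) or BaP library D (0.0873), that at 1.33 µM without any of 4 libraries (8-MBaP C, BaP B, C or D, at 0.0615 to 0.0962), and that against 6-MBaP at 0.133 µM without 8-MBaP library A, or 6-MBaP library B or D (0.141 to 0.155). Both calls against 6-MBaP at the higher concentrations held in each such fit. Between 6-MBaP and BaP no pair was called: the difference was −0.74 at 13.3 µM with an interval of −2.27 to 0.79 (0.114% called), −3.21 at 1.33 µM with an interval of −5.39 to −1.03 (adjusted p = 0.34, no overlap, with 0.0543% called) and −1.48 at 0.133 µM with an interval of −3.65 to 0.69 (0.174% called).

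**Figure D3:**
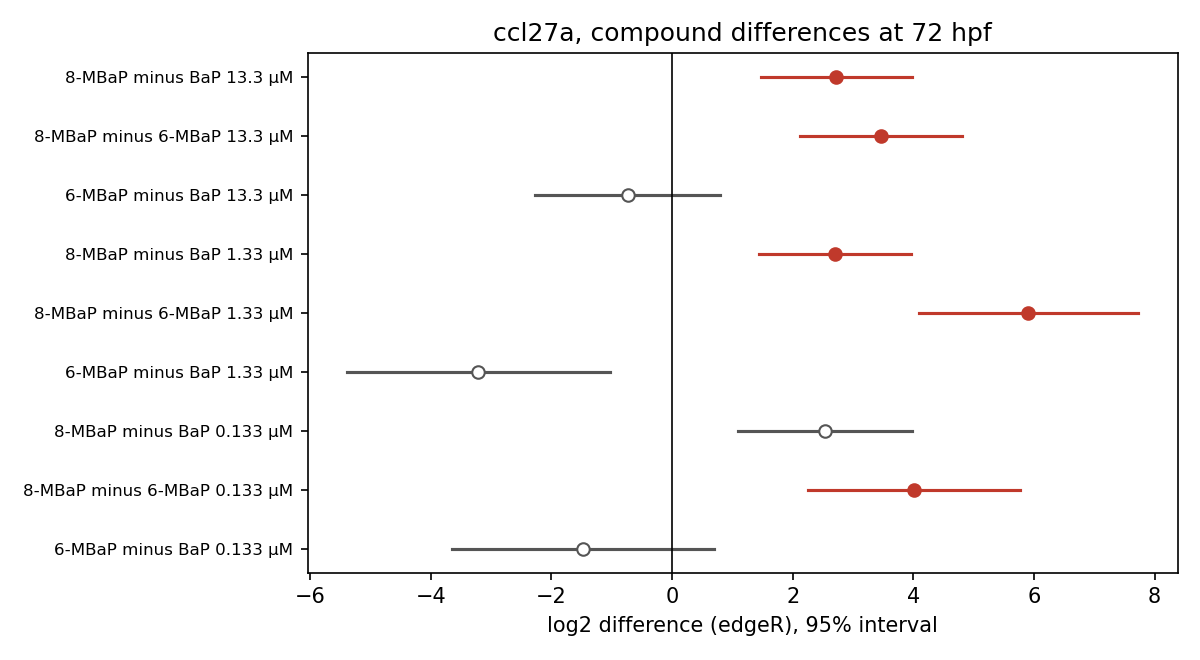
Log2 difference of ccl27a between compounds at the same concentration at 72 hpf, for 9 pairs, with the estimate as a point and its 95% interval as a line on the horizontal axis; filled red points passed an adjusted p of 0.05 and open points did not. The 5 filled points are all 8-MBaP minus another compound, from 2.70 to 5.91.

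Of genes with no read in the 48 hpf controls, 4189 had a read in an exposed library of that age and 181 were among those tested. Summed over the 4 libraries of 8-MBaP at 13.3 µM, *wfikkn1* had 100 reads and *ccl27a* 28, the highest 2 sums. The genes just below were *rhno1*, a partner of the DNA damage checkpoint clamp, with 24 reads (2, 0, 20 and 2), *arhgef33* with 22 (2, 9, 6 and 5), and *sult5a1*, a sulfotransferase family gene, with 21 (3, 6, 11 and 1). The reads of *rhno1* were mostly from library C, while *wfikkn1* had at least 20 in each library. Genes with exactly 1 control read, just outside the rule, had at most 19 reads in the same libraries, led by *vezt*, a cell junction gene (19), *pla2g4a*, a phospholipase A2 (18), and *faap24*, of the Fanconi anaemia DNA repair pathway (18). These values are a description, as they ranked the genes that the rule found.

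**Figure D4:**
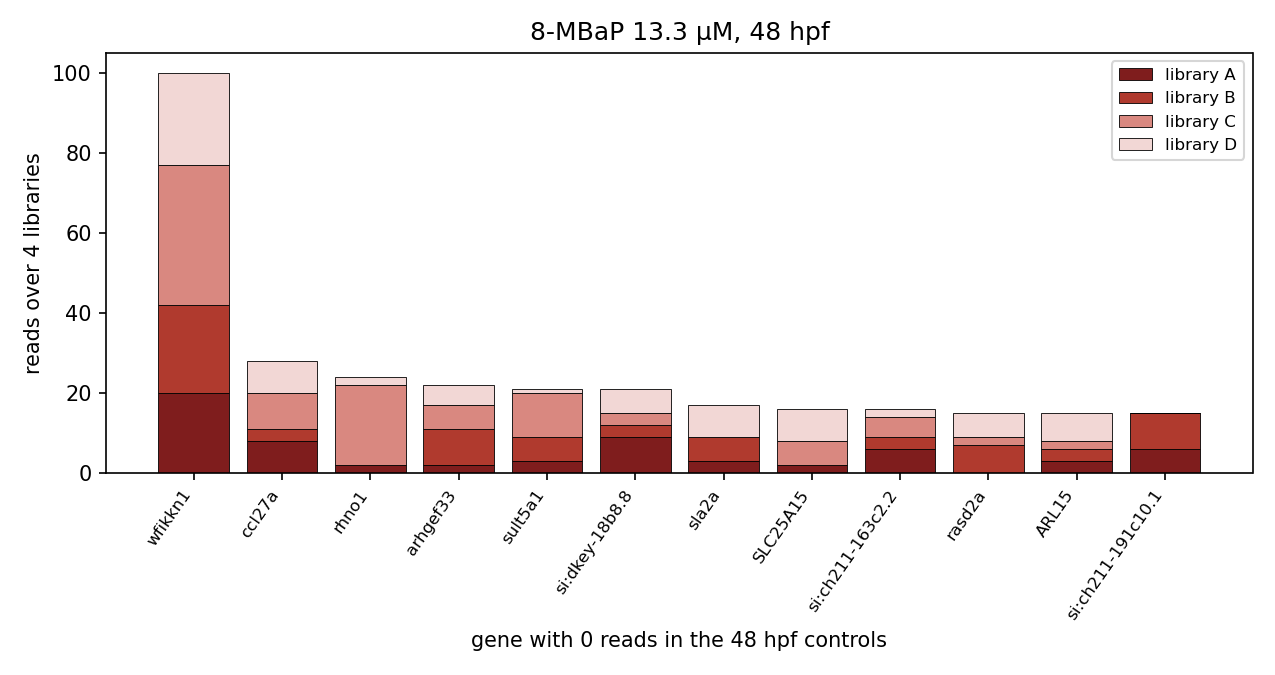
Reads at 48 hpf in 8-MBaP at 13.3 µM, summed over libraries A to D (vertical axis, stacked by library), for the 12 genes with the highest sums among those with 0 reads in the 4 controls of 48 hpf (horizontal axis). The bar of wfikkn1 reaches 100 reads, that of ccl27a 28 and that of rhno1, the next, 24, of which 20 are from library C.

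Over the 40 libraries of a time point the genes most like each of the pair were sought by Pearson's correlation of log2 CPM, given here as a description. Libraries of one group share exposure and plate, so the points are not independent. Those of 48 hpf include the groups whose values chose the genes, so likeness there to genes raised by 8-MBaP is in part set by that choice. Spearman's correlation with *cyp1b1* at 48 hpf was 0.792 for *wfikkn1* and 0.641 for *ccl27a*. At 48 hpf the pattern of *wfikkn1* was closest to the gene ENSDARG00000109310 (r = 0.906), *ugt1b5*, a glucuronosyltransferase gene (r = 0.903), *sult6b1*, a sulfotransferase gene (r = 0.898), *cyp1b1* (r = 0.891) and *pkhd1l1* (r = 0.881). For *ccl27a* at 48 hpf the nearest were *psph*, the last enzyme of serine synthesis (r = 0.844), *cyp1b1* (r = 0.838), *cyb5a*, an electron donor of P450 enzymes (r = 0.835), *pde6ha*, a photoreceptor phosphodiesterase subunit (r = 0.828), and *pkhd1l1* (r = 0.826). At 72 hpf *ccl27a* was closest to *pkhd1l1* (r = 0.880), *cyp1c2* (r = 0.876), *sult6b1* (r = 0.862), *cyp1b1* (r = 0.858) and *cyp1a*, the usual readout of AHR activity (r = 0.856). For *wfikkn1* at 72 hpf, with few reads left, they were *ethe1*, of mitochondrial sulfide oxidation (r = 0.815), *gstp1.2*, a glutathione transferase gene (r = 0.790), *thbs1*, a thrombospondin of the matrix (r = 0.764), *tiparp*, a repressor of AHR (r = 0.753), and *tm4sf4* (r = 0.737). The correlation of *wfikkn1* with *ccl27a* was 0.697 at 48 hpf and 0.662 at 72 hpf.

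The *cyp1* genes, whose products oxidise polycyclic aromatic hydrocarbons, were far more abundant in the same libraries. At 48 hpf *cyp1a* lay at 5.01 ± 0.685 CPM in controls, 303 ± 63.9 CPM in BaP at 13.3 µM and 885 ± 81.5 CPM in 8-MBaP at 13.3 µM (SD, n = 4), and 6-MBaP at 13.3 µM was at 22.7 ± 4.05 CPM. The same order of 8-MBaP, BaP and 6-MBaP held for *cyp1b1*, at 137 ± 12, 22.9 ± 3.89 and 6.62 ± 2.10 CPM. The level of *wfikkn1* followed this order at 48 hpf whereas *ccl27a* had 0 reads in BaP at 13.3 µM as in the controls. At 72 hpf the means of *ccl27a* at 13.3 µM did follow it, at 3.60, 0.529 and 0.297 CPM, with BaP and 6-MBaP overlapping. At 48 hpf *cyp1a* was at 345 ± 36.6 CPM in 8-MBaP at 0.133 µM, beside 303 CPM in BaP at 13.3 µM. In these groups *wfikkn1* was at 0.691 and 0.976 CPM and *ccl27a* at 0.535 and 0 CPM, the doses being different. Of a list of 16 genes of the AHR response, 12 were tested and 7 rose and 0 fell in 8-MBaP at 13.3 µM, at 48 hpf and at 72 hpf, with medians of 1.38 and 1.06 on the log2 scale, against 0.0016 and −0.0044 over all genes tested, of which 1.54% and 2.47% were called. Among those called, the 4 with the largest differences were *cyp1a* (7.45 ± 0.17 at 48 hpf), *cyp1c2* (5.49 ± 0.42), *cyp1b1* (5.11 ± 0.20) and the forkhead transcription factor gene *foxq1a* (3.69 ± 0.17).

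**Figure D5:**
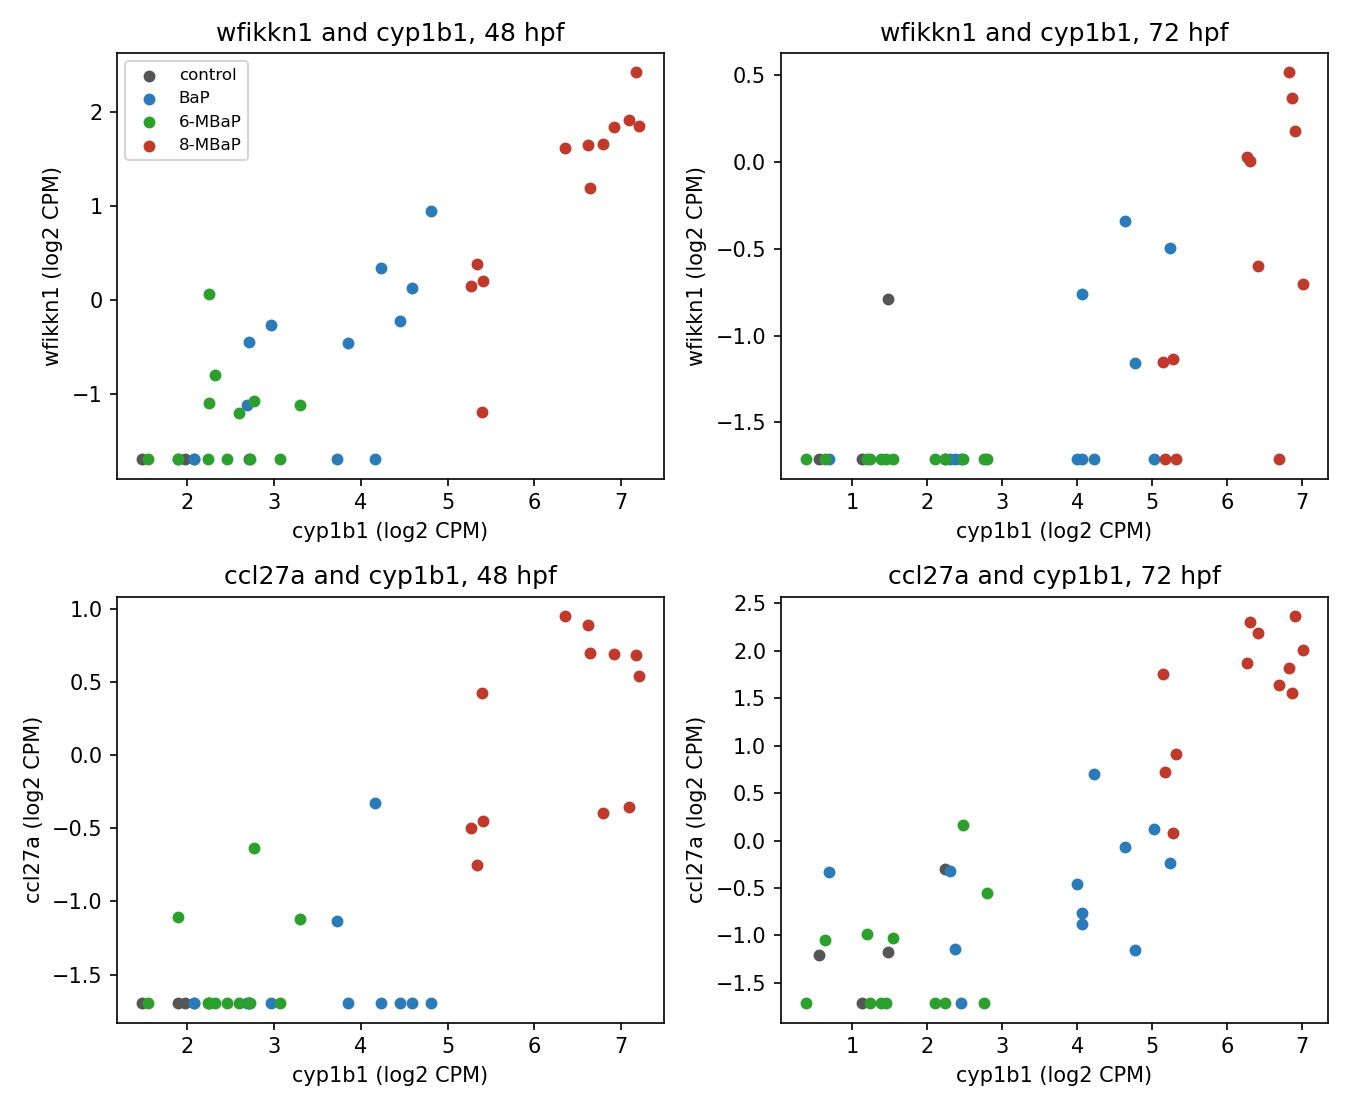
Log2 CPM of wfikkn1 (upper panels) and ccl27a (lower panels) on the vertical axis against that of cyp1b1 on the horizontal axis, for 40 libraries at 48 hpf (left) and 40 at 72 hpf (right), coloured by compound. Libraries of 8-MBaP lie at the upper right at 48 hpf, and libraries with 0 reads form the lowest row of points. The correlations are 0.891 for wfikkn1 at 48 hpf and 0.838 and 0.858 for ccl27a at 48 and 72 hpf. At 72 hpf cyp1b1 was not among the 5 genes most like wfikkn1, of which the lowest correlation was 0.737.

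The genes of the signalling pathway on which WFIKKN1 acts in mammals are read against the share of all genes called in 8-MBaP at 13.3 µM, 1.54% at 48 hpf and 2.47% at 72 hpf. Of the ligands of the myostatin and activin group 0 of 5 tested passed at 48 hpf or at 72 hpf. Of their receptors and SMADs 0 of 12 passed at 48 hpf and 0 of 10 at 72 hpf. Of 8 tested antagonists 0 passed at 48 hpf and 1 at 72 hpf, *fstl3* (ENSDARG00000025670), a follistatin-like antagonist, which rose by 0.98 ± 0.17 (adjusted p = 0.000106). Of the 8 antagonists 2 rose in the 72 hpf libraries of 8-MBaP at 1.33 µM, where 0.923% of all genes were called. Medians of these lists ran from 0.03 to 0.39 on the log2 scale, against the same values over all genes tested. The other WFIKKN genes had too few reads to test: *wfikkn2a* had 10 reads in 40 libraries at 48 hpf and 3 at 72 hpf, and *wfikkn2b* 0 at each time.

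Chemokines other than *ccl27a* moved both ways in 8-MBaP at 13.3 µM. At 48 hpf 3 of 21 tested ligands rose and 2 fell, and at 72 hpf 2 of 27 rose and 2 fell, with *ccl27a* not counted in the list, where 1.54% and 2.47% of all genes tested were called. The gene *cxcl19* rose by 3.66 ± 0.63 at 48 hpf (adjusted p = 6.15e-05), from a mean of 2.25 reads per library to 34.5, and by 6.16 ± 0.84 at 72 hpf (adjusted p = 3.89e-07). The gene *cxcl18b* rose by 1.63 ± 0.36 at 48 hpf (adjusted p = 0.00417). The gene *ccl19a.2* rose from a mean of 0 to 7 reads at 72 hpf (adjusted p = 0.0432). In contrast *cxcl8a*, whose human counterpart draws neutrophils, fell by 2.26 ± 0.40 at 48 hpf (adjusted p = 0.000109), from 25.25 to 6 reads per library. The ligands that fell at 72 hpf, named after their values were seen, were *ccl34b.1* (−1.62 ± 0.31, adjusted p = 0.000392) and *cxcl12b* (−0.92 ± 0.15, adjusted p = 3.3e-05). The median of the ligands was −0.03 at 48 hpf and −0.02 at 72 hpf. Of chemokine receptors 0 of 8 passed at 48 hpf and 2 of 9 rose at 72 hpf, against the same shares of all genes, and these were both *cxcr4* genes (ENSDARG00000041959, 1.11 ± 0.33, adjusted p = 0.0492; ENSDARG00000057633, 1.28 ± 0.32, adjusted p = 0.0131). The paralog *ccl27b* had 6 reads in 40 libraries at 48 hpf and 0 at 72 hpf, with 0 in 8-MBaP at 13.3 µM and 0 in controls.

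Since mammalian CCL27 comes from skin, the epidermal markers are given beside *ccl27a*. Their summed level (4 of 4 found in every group) was 10461 to 12073 CPM in 8-MBaP at 13.3 µM and 17127 to 18622 CPM in controls at 48 hpf, and 6473 to 6704 against 14140 to 14624 CPM at 72 hpf. Of the 4 epidermal markers 3 fell at 48 hpf and 2 at 72 hpf, and 0 rose, where 1.54% and 2.47% of all genes tested were called. Among them the keratin gene *krt4* fell by 0.67 ± 0.06 at 48 hpf (adjusted p = 1.76e-13) and by 1.33 ± 0.08 at 72 hpf (adjusted p = 1.65e-19). At 48 hpf the epidermal sum also lay below all controls in 8-MBaP at 1.33 µM (11609 to 12982 CPM) and 0.133 µM (13671 to 14708 CPM). So did BaP at 13.3 µM (14616 to 14653 CPM) and 1.33 µM (14995 to 16216 CPM), and 6-MBaP at 13.3 µM (14856 to 16416 CPM). The remaining exposures of 48 hpf overlapped with the controls. The epidermal sum was also lower in BaP at 13.3 µM at 72 hpf, at 8125 to 9687 CPM. It lay below all controls of that age in 8-MBaP at 1.33 and 0.133 µM too. The same held for 6-MBaP at 13.3 µM (10257 to 12015 CPM) and 0.133 µM (11319 to 11894 CPM), and for BaP at 0.133 µM (12137 to 13862 CPM). At 72 hpf only 6-MBaP and BaP at 1.33 µM overlapped with the controls. The controls filled 1 plate, so an offset of that plate cannot be told apart from exposure. Immune cell markers (4 of 6 matched) summed to 52.7 to 82.7 CPM in 8-MBaP at 13.3 µM and 93.2 to 158 CPM in controls at 48 hpf. At 72 hpf the sums were 16.1 to 31.2 against 26.1 to 41.5 CPM, which overlapped. Of the 4 immune markers 1 was called at 48 hpf and 0 at 72 hpf. That was *lyz*, the neutrophil and macrophage lysozyme gene, which fell by 1.04 ± 0.13 at 48 hpf (adjusted p = 2.04e-08). At 48 hpf 1 immune marker also fell in 8-MBaP at 1.33 and 0.133 µM (0.691% and 0.433% of all genes called). The same count fell in BaP and 6-MBaP at 13.3 µM (0.343% and 0.253%). The sums of 8-MBaP at 1.33 µM (72.2 to 90.3 CPM) and 6-MBaP at 13.3 µM (74.3 to 88.9 CPM) lay below all controls too, and those of the other exposures overlapped with them. In 8-MBaP at 13.3 µM the 4 skeletal muscle marker IDs, beside *wfikkn1*, were called in neither direction, with medians of −0.01 at each time. Of neuronal marker IDs 1 of 5 fell at each time and of liver markers 0 of 2 at 48 hpf and 1 of 2 at 72 hpf, while no heart or red cell marker passed. The part of these marker levels in the *ccl27a* and *wfikkn1* results was not tested. The neighbouring gene of *ccl27a* in the RefSeq order, *avp*, a hormone gene, differed by −0.08 ± 0.45 at 48 hpf (adjusted p = 0.98) and 0.20 ± 0.35 at 72 hpf (adjusted p = 0.89), and ENSDARG00000098899, that of *wfikkn1*, had too few reads to test.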

How the data were processed

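The deposited count table held raw reads per gene for 80 libraries, made by the authors with BRB-seq; the aligner, genome build and any removal of duplicate molecules are not given in the sources used here. All 80 value columns were used, in whole reads without normalization, and no pair of libraries of the same group was identical. Exposure began at 6 hpf in the labels and 7 hpf in the study's methods.

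Counts were analysed in R 4.3.3 with edgeR 4.0.16 (limma 3.58.1). A gene was kept at a time point if 2 or more of its libraries held 5 or more reads, then counts were TMM scaled and fitted with the quasi-likelihood model over the 10 groups of that time point, with Benjamini-Hochberg adjustment over all genes tested and a threshold of 0.05. Intervals are 1.96 standard errors. DESeq2 1.42.0, the tool the study used, other scaling, other filters, fits of only the compared groups, a replicate block, libraries left out and, added after seeing the data, an exact permutation test were alternatives. Letters A to D did not pair libraries, so no block entered the tests. Correlations used log2 CPM with a prior count of 2.

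Genes named were the pair, the 5 most correlated with each at each time, the 3 of highest sum with 0 and with 1 read in 48 hpf controls, up to 4 called members of each list by size of change, and *cyp1a*; neighbours and paralogs were added after seeing values. The members and lists (AHR response, myostatin and activin ligands, receptors and antagonists, chemokine ligands and receptors, and tissue markers) were chosen with earlier results of these data known. Symbols came from a gene name table, in part those of human counterparts; RefSeq GRCz12tu gave neighbours only. Counting limits cover counting error only, not the choice of the genes by 0 reads in the 48 hpf controls. P-values measure the spread between pools of 1 plate.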

Additional observations from a re-analysis of the deposited data

Results flagged for a closer look

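In 8 of 31 groups with any spread, 1 library stood far from the other 3 by Dixon's ratio of gap to range. The ratios were taken on CPM, not on the reads printed beside them, in which the gaps can be smaller. Chance alone gives about 1 group in 20, and in sparse counts a single library with reads always passes. For *wfikkn1* at 48 hpf, library C of 8-MBaP at 13.3 µM was the highest with 35 reads (ratio 0.890) and library C of 8-MBaP at 1.33 µM the lowest with 12 (ratio 0.895). Library B was the only one with reads in 6-MBaP at 1.33 µM (5 reads, ratio 1) and at 0.133 µM (1 read, ratio 1). At 72 hpf *wfikkn1* had reads in only library C of BaP at 1.33 µM (2 reads, ratio 1) and only library B of the controls (2 reads, ratio 1). For *ccl27a* library A was the only one with a read in 6-MBaP at 0.133 µM at 48 hpf and in 6-MBaP at 1.33 µM at 72 hpf (1 read and ratio 1 in each).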

How the results depend on the processing

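Both genes had few reads, which limits every call. With 1 library left out at a time the *ccl27a* difference of 8-MBaP at 13.3 µM from control at 72 hpf ran from 3.79 to 5.02 and stayed called, and that of *wfikkn1* from 2.81 to 5.44 and was never called. Calls of *ccl27a* ran from 2 to 3 of 9 exposures, 4 to 5 of 9 pairs at 72 hpf and 0 to 1 of 7 pairs at 48 hpf, and those of *wfikkn1* from 0 to 1 pair at 72 hpf (1 without 8-MBaP 1.33 µM D or BaP 13.3 µM B) and 1 to 2 pairs at 48 hpf. The *wfikkn1* difference of 8-MBaP at 0.133 µM from control at 72 hpf, 0.09, changed sign without 8-MBaP library A (−0.33) or B (−0.35) or control A (−0.21), C (−0.23) or D (−0.28), within a range of −0.35 to 2.35. Fitting only the compared groups called 1 pair of *wfikkn1* at 72 hpf (8-MBaP against 6-MBaP at 13.3 µM, adjusted p = 0.0461) and lost *ccl27a* in 8-MBaP against 6-MBaP at 0.133 µM (adjusted p = 0.0976). At 72 hpf *wfikkn1* passed the filter on low counts only through 8-MBaP, so no call of it there is support for a higher level in 8-MBaP. By the unadjusted permutation test *wfikkn1* passed in 1 of 9 exposures and 1 of 9 pairs at 72 hpf and 3 of 7 pairs at 48 hpf, and *ccl27a* in 3 of 9 exposures, 7 of 9 pairs and 3 of 7 pairs; after adjustment none passed. The cause of these changes was not tested.

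The letters paired no libraries (correlations of −0.0541 to 0.0561 at 48 hpf and −0.104 to 0.0646 at 72 hpf, with 12 and 10 of 40 libraries closest to their own letter). With a replicate block the 13.3 µM differences from control at 72 hpf were 4.23 for *ccl27a* and 3.23 for *wfikkn1*, and no call of either gene changed. DESeq2 gave no adjusted p for *ccl27a* in 8 of 9 pairs at 72 hpf and 6 of 7 at 48 hpf, nor for *wfikkn1* in 9 of 9 and 6 of 7, so it was compared only elsewhere. The filterByExpr filter left *ccl27a* untested at 48 hpf and *wfikkn1* at 72 hpf. A limit of 3 reads per library in place of 3 per group lowered the bounds at 13.3 µM 8-MBaP from 28.4 to 7.08 for *wfikkn1* and from 7.96 to 1.98 for *ccl27a*. With Spearman's correlation 2 and 3 of the 5 genes most like *wfikkn1* at 48 and 72 hpf were shared, and 1 and 3 of those of *ccl27a*. The count of all genes called differed by over 1.5 times from the main one in 16 of 34 comparisons with DESeq2. It did so in 30 with no filter and in 0 with another scaling. Finite ratios to the main count ran from 1 to 28 with DESeq2 and from 1.31 to 67 with no filter, so neither called fewer genes. For 8-MBaP against BaP at 13.3 µM at 72 hpf the count was 150, with DESeq2 230 and with no filter 288.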

Other observations

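The pathway genes and markers above leave a few values that belong to no comparison. The gene on the other side of *ccl27a* in RefSeq order, *slc35d2*, a nucleotide sugar transporter gene, had a mean of 1 read per library in controls and 0.25 in 8-MBaP at 13.3 µM at 48 hpf, and 1.75 and 0.75 at 72 hpf, too few to test.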
